A study of Mus musculus with 2 samples.

Results

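The cells described here were 484 of the 3065 cells kept from 1 single-cell RNA library of sorted mouse liver leukocytes. They were chosen by their messenger RNA for Cd209a, a C-type lectin gene of the DC-SIGN family. A cell was taken where at least 2 molecules of Cd209a had been counted and where no molecule had been counted of 7 genes that mark other cells: Xcr1 and Clec9a (type 1 dendritic cells), Siglech (plasmacytoid dendritic cells), Cxcl9, Ccr7 (mature dendritic cells), and Cd3d and Cd3g (T cells). They made up 15.8% of the kept cells (exact Clopper-Pearson interval, 14.5 to 17.1%). Since Cd209a levels chose the cells, every comparison with other cells of the same library is given as a description, with no test.

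The library came from CD45+Lin-Sca-1+Mac-1+ liver cells, called LSM, of C57BL/6 mice aged 7 to 10 weeks. The only other library of the series held CD45+Lin-CD122+CD49a+ liver cells from mice of the same strain and age range. No treatment or genetic change was named for either gate. Each gate was 1 library, the labels do not say how many mice went into it, and nothing in it is a replicate, so a difference between the gates cannot be told apart from a difference between these 2 libraries.

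Dendritic cells take up antigen, cut it into peptides and show those peptides on MHC class II molecules to CD4+ T cells. Conventional dendritic cells fall into type 1, which depend on IRF8 and BATF3 and carry XCR1 and CLEC9A, and type 2, which carry SIRPα and CD11b and use IRF4. Type 2 cells share many genes with monocytes, including lectin receptors that bind sugars on microbes and on self proteins, so the border between type 2 dendritic cells and monocyte-derived cells is hard to draw from RNA alone.

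Counts are of unique molecular identifiers (UMIs), each standing for 1 captured RNA molecule, and a level is the summed UMIs of a gene over all cells of a class, given as UMIs per 1000000 of that class (CPM). The LSM library held 16226070 UMIs in 3133 barcodes, of which 59 were left out for fewer than 500 detected genes and 9 for more than 10% mitochondrial UMIs. The Cd209a-high cells held 2902140 UMIs, from 1536 to 14087 per cell with a median of 5755.5, and a median of 1.15% mitochondrial UMIs. The 2581 other LSM cells had a median of 4795 UMIs. Barcodes shared by the 2 libraries numbered 3. Intervals on levels and ratios are exact Poisson and conditional 95% intervals, and cover counting error only.

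Comparison cells were chosen by UMIs as well. Type 1 dendritic cells (58 LSM cells, median 7829.5 UMIs) had at least 2 UMIs of Xcr1 and Clec9a together and none of Cd209a, Siglech, Cxcl9, Ccr7, Cd3d or Cd3g. Nonclassical monocytes (202 LSM cells, median 2420.5 UMIs) had at least 2 UMIs of Ace and Treml4 together and none of Cd209a or of the 7 excluded genes. The 85 cells with at least 2 UMIs of Cd3d and Cd3g together (median 2346 UMIs) served as T cells. A dendritic cell gene should be absent in them, so their shares are a guide to free RNA. Their rule did not bar Cd209a, which had a UMI in 7.06% of them and stood at 144 CPM. Doublets can add to such values, and their part was not tested.

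The threshold cut through a range rather than between separate groups. Cd209a UMIs ran from 2 to 32 in the chosen cells, with quartiles at 4, 6 and 10. Just inside, 64 cells had 2 Cd209a UMIs: 26.6% of them had a Clec10a UMI, 53.1% an Fcor UMI, and H2-Ab1 stood at 5426 CPM. Just outside, 74 cells had 1 Cd209a UMI and none of the excluded genes: 13.5% had a Clec10a UMI, 28.4% an Fcor UMI, and H2-Ab1 stood at 5717 CPM. The exclusion step mattered more than the threshold did. Of 713 cells with at least 2 Cd209a UMIs, 229 (32.1%) were left out, 87 of them for a single UMI. The genes most often found in the cells left out were Clec9a in 91, Siglech in 82 and Cxcl9 in 69. The 82 cells with Siglech had an expression pattern unlike that of the chosen cells: Bst2 stood at 4985 CPM, Ly6c2 at 1110 CPM and H2-Ab1 at 722 CPM in them, against 678, 64.8 and 7319 CPM in the Cd209a-high cells.

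Class II presentation genes were among the most abundant messages of the Cd209a-high cells. Apart from the cytoskeletal genes Tmsb4x (28367 CPM), Actb (21529 CPM) and Tmsb10 (15190 CPM), the gene with the highest level was Cd74, the MHC class II invariant chain, at 22713 CPM. H2-Eb1 (7475 CPM), H2-Ab1 (7319 CPM) and H2-Aa (6323 CPM), the class II chains themselves, were among the 10 highest genes, and so was Cst3, the protease inhibitor cystatin C, at 7029 CPM.

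A gene counted as higher or lower when its ratio, after 5 CPM was added to both levels, was at least 2-fold, and it was compared when its mean over both classes was at least 10 CPM. Against the other LSM cells, 77 of 6277 genes were higher (1.23%) and 300 lower (4.78%), and the median gene had a log2 ratio of -0.17. The median was 0.05 with TMM and 0.06 with DESeq2 size factors. The share of the called genes that were higher went from 20.4% to 38.3% and 39.9%. Both methods place the typical gene near 0 by design, so these medians do not show what gave the offset, which was not tested. The ratios below use total UMIs and are to be read against the median of -0.17. Of the 5 genes proposed as markers of these cells (Cd209a, Clec10a, Clec4b1, Mcemp1 and H2-Ab1), 4 were at least 2-fold higher, and H2-Ab1 was 1.95-fold higher (1.92 to 1.98).

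Lectin receptors led the list of 25 genes with the largest ratios. Cd209a itself, used by the rule, stood at 1244 CPM against 110 CPM. Clec10a, a receptor for galactose-type sugars, stood at 316 CPM and had a UMI in 51.4% of the Cd209a-high cells, against 52.7 CPM and 11.4% of the other cells, a 6.00-fold difference (5.43 to 6.63). Clec4b1, an activating receptor of the same superfamily, stood at 181 CPM and was found in 46.3% of cells, against 27.2 CPM and 8.41%, a 6.65-fold difference (5.81 to 7.63). In T cells the same 2 genes had a UMI in 1.18% and 3.53% of cells. After every cell was thinned to 1500 UMIs, so that depth was equal, Clec10a was seen in 28.9% of Cd209a-high cells against 1.35% of T cells, and Clec4b1 in 22.3% against 1.35%. Both shares thus lay well above those of the T cells, and neither lectin was counted in every Cd209a-high cell.

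Other leading genes encode receptors and membrane proteins. Ltb4r1, the high-affinity receptor for leukotriene B4, stood at 148 CPM against 30.1 CPM, a 4.93-fold difference (4.29 to 5.66). Mcemp1, a membrane protein first named from mast cells, was 3.89-fold higher (3.44 to 4.41), at 166 against 42.6 CPM. Cd300a, an inhibitory receptor, stood at 330 against 134 CPM, and Klrd1, the CD94 chain best known from NK cells, at 670 against 285 CPM. A Klrd1 UMI was found in 82.4% of Cd209a-high cells, 50% of type 1 dendritic cells and 1.98% of nonclassical monocytes. The 56.5% of T cells with a Klrd1 UMI gives no background, since cytotoxic lymphocytes make this RNA themselves. Ncr1, Klrb1c and Eomes, which define NK cells, were at 0 UMIs in the Cd209a-high cells (which allows up to 1.03 CPM each), and Nkg7 stood at 0.689 CPM.

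Some leading genes belong to the same families. Ifitm3, Ifitm2 and Ifitm6, of the interferon-induced membrane proteins on chromosome 7, stood at 5252, 1296 and 259 CPM against 1826, 552 and 72.4 CPM. Ifitm3 was found in 99.6% of the Cd209a-high cells. Ifitm1 of the same family was lower, at 51.0 against 342 CPM. Ms4a6c, Ms4a4c and Ms4a6b, tetraspan membrane proteins encoded on chromosome 19, stood at 736, 360 and 253 CPM against 286, 122 and 103 CPM. Of the 25 leading genes, 10 had another leading gene within 500 kb. Near-identical members of such families can share reads, and the sources used here do not say how such reads were counted.

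Among the nuclear and other genes, Fcor, a corepressor of FOXO1, had a UMI in 53.3% of Cd209a-high cells against 9.45% of the other cells and 2.35% of T cells, at 148 against 26.2 CPM (5.65-fold, 4.90 to 6.53). Atf3, a stress-induced transcription factor, stood at 671 against 227 CPM, and Lmo1, a LIM-domain cofactor, at 124 against 38.6 CPM. Pid1, Ccdc109b (a subunit of the mitochondrial calcium uniporter), Trf (transferrin), Tep1, Rnd3 and the chemokine Ccl9 were 2.61- to 3.55-fold higher. S100a4, a calcium-binding protein of motile cells, stood at 2521 against 1080 CPM, and H2-DMb1 at 1285 against 542 CPM.

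**Figure D1:**
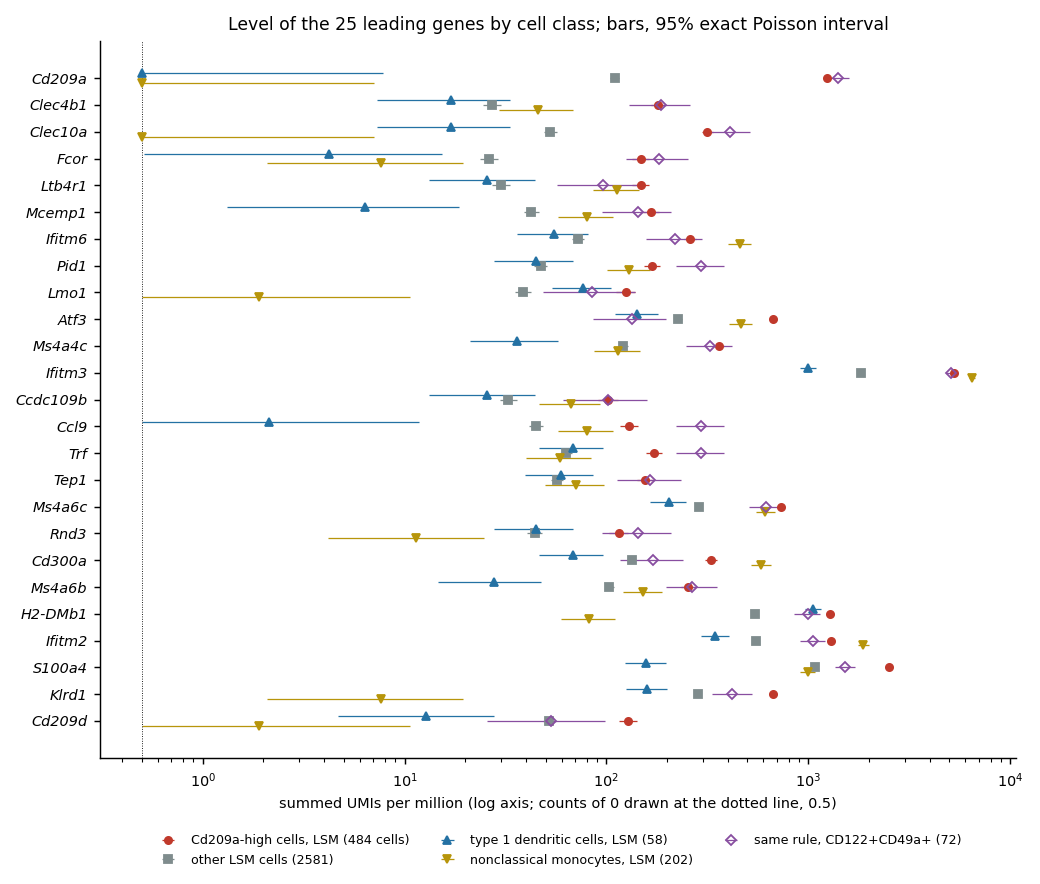
Level of the 25 leading genes (horizontal log axis, CPM) in the 484 Cd209a-high LSM cells, the 2581 other LSM cells, 58 type 1 dendritic cells, 202 nonclassical monocytes and the 72 cells of the same rule in the CD122+CD49a+ library, with bars for 95% exact Poisson intervals and counts of 0 drawn at 0.5. The Cd209a-high points of both libraries lie close together for most genes. The type 1 dendritic cells lie to the left of the LSM Cd209a-high points for every gene. The nonclassical monocytes lie to the left or to the right of them depending on the gene.

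The lowest ratios belonged to genes of other cells and of dividing cells. Cd81, a tetraspanin, stood at 6.20 CPM against 147 CPM in the other LSM cells, 23.8-fold lower (15.0 to 40.2). The chemokine genes Ccl3 (118 against 924 CPM) and Ccl4 (287 against 1869 CPM) were 7.84- and 6.51-fold lower. Stmn1, Hist1h2ap and Hmgn2, which are high in dividing cells, were 8.01-, 4.23- and 4.33-fold lower. Of 12 S-phase genes, 8 were compared and 4 were lower, and of 12 genes of G2 and M phase, 6 were compared and 2 were lower. Of all genes compared, 4.78% were lower. Only 4 of the 484 cells had at least 3 UMIs of 10 G2 and M phase genes.

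Markers of both dendritic cells and monocytes were read in these cells, so the name dendritic cell rests on part of the evidence. Of 9 genes shared by both conventional subsets, 8 were compared with the other LSM cells and none was 2-fold higher or lower, but those other cells include other dendritic cells. Against nonclassical monocytes 7 of the 8 were higher, among them Flt3 (the receptor for the growth factor of dendritic cells, 66.5 against 5.71 CPM, 11.6-fold, 3.92 to 56.9), Batf3 (205 against 26.7 CPM) and Zbtb46 (20.3 CPM against 0 UMIs in the monocytes). Flt3 had a UMI in 31.4% of the Cd209a-high cells and 1.18% of T cells. Zbtb46 had a UMI in 11% of Cd209a-high cells and 2.35% of the T cells, which were shallower. After the thinning described above, which made depth equal, Flt3 was seen in 8.88% (6.50 to 11.8%) against 0% (0 to 4.86%). Zbtb46 was then seen in 2.69% of Cd209a-high cells (1.44 to 4.55%) and 1.35% of T cells (0.0342 to 7.30%). At equal depth Zbtb46 was thus not told apart from the T cell background. Itgax, which encodes CD11c, stood at 60.0 CPM.

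Of the 12 genes of the type 2 list, 11 were compared with the other LSM cells, 5 were higher and 1 lower. Of all genes compared, 1.23% were higher and 4.78% lower. Cd209a is among the 5 by the rule, and without it 4 of 10 were higher. Besides Clec10a, these were Clec4a2 (76.5 against 17.6 CPM, 4.34-fold, 3.60 to 5.24), Mgl2 (104 against 36.5 CPM) and Itgam (64.4 against 29.6 CPM). Irf4 stood at 21.7 against 11.4 CPM (1.91-fold, 1.40 to 2.58) and Sirpa at 61.7 against 44.2 CPM. Ltb, encoding lymphotoxin β, was the gene that was lower, at 44.1 against 141 CPM.

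Monocyte genes gave a split reading. Ccr2, which brings monocytes out of the bone marrow, stood at 372 against 175 CPM and was found in 79.3% of the Cd209a-high cells, 79.3% of type 1 dendritic cells and 7.92% of nonclassical monocytes. Its level in the type 1 dendritic cells, 323 CPM, was within counting error of that (ratio 1.15, 0.971 to 1.37). F13a1 (16.2 against 1.28 CPM, 12.6-fold, 7.13 to 23.5) and Fn1 (16.2 against 3.39 CPM, 4.78-fold, 3.11 to 7.36) were higher, at levels too low to be among the genes compared. Ly6c2 stood at 64.8 against 130 CPM and Csf1r at 57.5 against 58.1 CPM, and Vcan and Chil3 had no UMI. Over the 11 classical monocyte genes, 7 were compared, 1 was higher (Ccr2) and 1 lower. An Ly6c2 UMI was found in 16.7% of the Cd209a-high cells, 6.90% of type 1 dendritic cells and 0.495% of nonclassical monocytes. T cells, which can express Ly6c2 themselves, had one in 40%.

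Most markers of other liver and blood cells were low. Of 11 Kupffer cell and macrophage genes, Clec4f, Vsig4, Marco and Mertk had no UMI and the 3 C1q genes stood between 7.24 and 14.8 CPM. That list summed to 264 CPM against 336 CPM in the other cells, of which Cd68, an endosomal protein of macrophages that dendritic cells also make, held 223 CPM (against 137 CPM). The 6 neutrophil genes summed to 3.10 CPM (4 of them at 0 UMIs), the 8 hepatocyte genes to 1.38 CPM (5 at 0) and the 6 T cell genes to 3.45 CPM (4 at 0, 2 of these by the rule). The 7 B cell genes summed to 17.2 CPM and the 6 plasma cell genes to 100 CPM, against 109 and 4386 CPM in the other cells. Of 10 stem and progenitor genes, 6 were compared and 5 were lower, among them Cd34 (7.58 against 69.6 CPM) and Kit (13.4 against 45.7 CPM). Of all genes compared, 4.78% were lower. The sort itself used Sca-1, encoded by Ly6a, and Mac-1, whose α chain is encoded by Itgam. Ly6a stood at 56.5 CPM in 11% of the Cd209a-high cells against 224 CPM in 33.3% of the others, and Itgam was found in 28.3% against 11.9%. The 2 genes named by the gate thus differed in opposite directions between the Cd209a-high cells and the rest of the same library.

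The 10 MHC class II genes summed to 46427 CPM against 23191 CPM in the other LSM cells. The classical chains H2-Aa, H2-Ab1 and H2-Eb1 were 2.01-, 1.95- and 2.09-fold higher and Cd74 2.001-fold. H2-DMb1, part of the H2-DM complex that loads peptides, was 2.37-fold higher (2.28 to 2.47) and its partner H2-DMa 1.76-fold (1.69 to 1.84). Ciita, the coactivator of class II transcription, stood at 37.6 against 22.7 CPM (1.66-fold, 1.32 to 2.07). H2-Ob, part of the H2-DO complex that restrains H2-DM, stood at 62.4 against 68.7 CPM, within counting error of equal (ratio 0.908, 0.770 to 1.07). Over the list, 4 of 10 passed 2-fold and none was 2-fold lower, with a median log2 ratio of 0.89. Of all genes compared, 1.23% were higher. With TMM scaling 6 of the 10 passed. Of the 4 calls, H2-Aa, H2-Eb1 and Cd74 lay close to the 2-fold line, with log2 ratios of 1.01, 1.06 and 1.0002.

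The class II difference grew or vanished with the cells set beside them. Against type 1 dendritic cells none of the 10 genes passed 2-fold, the sums were 46427 and 39408 CPM, and H2-Ab1 stood at 7319 and 7622 CPM (ratio 0.960, 0.927 to 0.995). Against nonclassical monocytes all 10 did, with a median log2 ratio of 3.01 and H2-Ab1 at 7319 against 912 CPM (8.02-fold, 7.33 to 8.80). Class I genes did not follow. None of the 9 class I genes compared passed 2-fold against the other LSM cells.

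Class II genes are known to share an X box, bound by the RFX complex, and a Y box, bound by NF-Y, upstream of their starts. The promoter table from RefSeq (GRCm38.p6) held 7 of the 10 genes: H2-Aa, H2-Eb1, H2-DMa, H2-DMb1, H2-DMb2, H2-Oa and H2-Ob. The 250 bases before each start were searched on both strands for CTNGNAAC, then TGATTGG with 10 to 40 bases between, letters chosen after these promoters had been read. The pair was found in 4 of the 7 and in 24 of all 32851 promoters (0.0731%), while TGATTGG alone was in 7.23% and CTNGNAAC alone in 10.9%. Since the letters were chosen with the class II promoters in view, these shares are no test of enrichment. The 4 windows are shown because they are the sequence that a group of genes with like ratios, H2-Aa, H2-Eb1 and H2-DMb1, has in common with H2-Ob, whose level was within counting error of equal. Each is written 5′ to 3′ on the strand of its gene, with the X and then the Y letters in capitals.
H2-Aa, chr17:34287861-34287913, minus strand: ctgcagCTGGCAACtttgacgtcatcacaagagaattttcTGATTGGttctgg
H2-Eb1, chr17:34305767-34305818, plus strand: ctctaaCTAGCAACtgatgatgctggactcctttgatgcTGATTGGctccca
H2-DMb1, chr17:34153088-34153140, plus strand: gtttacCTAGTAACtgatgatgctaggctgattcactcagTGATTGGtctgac
H2-Ob, chr17:34238809-34238858, plus strand: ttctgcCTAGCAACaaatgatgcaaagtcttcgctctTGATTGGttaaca
The boxes were 26, 25, 26 and 23 bases apart, and the Y box ended 43 to 56 bases before the RefSeq start. For H2-DMb1 the GENCODE gene used elsewhere here starts at 34153072, so its window lies inside that annotated gene. A match of letters is a description and not a site shown to be used, and the promoters without a match say nothing of the factors. No match was found for the leading genes Cd209a, Clec4b1, Mcemp1 and Fcor.

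Genes that prepare peptides for class II varied. Ifi30, the lysosomal thiol reductase GILT, stood at 1959 against 957 CPM (2.05-fold, 1.98 to 2.11), and the proteases Ctss (1110 against 651 CPM) and Ctsh (798 against 463 CPM) were 1.70- and 1.72-fold higher. Ctsl (15.9 against 135 CPM) and Ctsd (25.8 against 70.3 CPM) were lower. Of the 12 lysosomal genes, 1 was higher and 2 were lower, with a median log2 ratio of 0.02.

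Of 27 C-type lectin and related receptor genes, 25 had a row in the count table and 11 reached the level for comparison. Of these 11, 7 were higher and none lower: Cd209a by the rule, Clec4b1, Clec10a, Clec4a2, Mgl2, Cd302 (48.6 against 20.6 CPM) and Cd209d (128 against 52.1 CPM, 2.45-fold, 2.16 to 2.79). Of all genes compared, 1.23% were higher. Clec4a1 and Clec4a3 stood at 54.8 and 107 CPM against 31.9 and 69.6 CPM. The mannose receptor Mrc1 was 4.02-fold higher (2.49 to 6.44) at only 12.4 CPM. Clec4d, Clec4b2, Clec12b, Cd207 and Cd209f had no UMI in the Cd209a-high cells. Inhibitory and activating members of the Clec4 cluster were thus both present, and langerin, the product of Cd207, was not detected.

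Cd209a lies on chromosome 8 (3743397 to 3748984, minus strand, GRCm38), in a cluster of its paralogs, and 3 more of the leading genes lie near it. Mcemp1 starts 83.2 kb and Fcor 76.6 kb to one side, and Cd209d starts 130 kb to the other. Within 200 kb the annotation held 15 protein-coding genes other than Cd209a, 7 of which were compared, and 4 were higher and 0 lower. Over all genes compared, 1.23% were higher. The window was set after these values were seen and 3 of the 4 were already leading genes, so the count is a description only. The fourth was Trappc5, a subunit of a vesicle tethering complex, at 242 against 102.1 CPM (2.37-fold, 2.16 to 2.60). Xab2, Pet100 and Stxbp2, at 128, 127 and 118 kb on the side of Mcemp1 and so nearer than Cd209d, stayed under 2-fold. Within 400 kb, 9 genes were compared and 5 were higher, the fifth being A430078G23Rik, 396 kb from Cd209a, at 30.3 against 9.19 CPM (3.30-fold, 2.48 to 4.38). Clec4g, whose start at 28.3 kb is the nearest, was too low to be compared, with 28 UMIs in the Cd209a-high cells and 22 in the others (ratio 5.82, 3.21 to 10.7). Of the paralogs with few counts, Cd209b had 24 UMIs in the Cd209a-high cells and 3 in all other LSM cells (ratio 36.6, 11.1 to 190), and Cd209c had 22 and 9 (ratio 11.2, 4.95 to 27.6). These paralogs resemble Cd209a in sequence, so their counts are uncertain, whereas Mcemp1, Fcor and Trappc5 do not belong to the family.

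**Figure D2:**
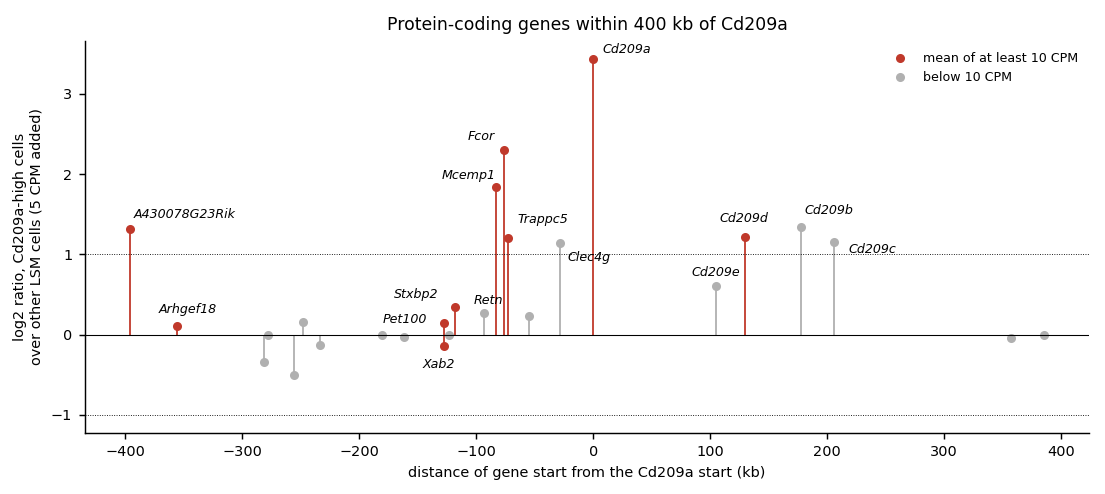
Log2 ratio of the Cd209a-high cells over the other LSM cells (vertical axis, 5 CPM added) for protein-coding genes within 400 kb of Cd209a, by distance of their starts from the Cd209a start in kb, with genes of a mean under 10 CPM in grey. Mcemp1, Fcor, Trappc5 and Cd209d, from 83.2 kb on one side to 130 kb on the other, lie above the dotted line of a 2-fold difference, as does A430078G23Rik at 396 kb, and Xab2, Pet100 and Stxbp2 lie under it. Of the grey genes, Clec4g, Cd209b and Cd209c lie above the dotted line as well.

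Of 20 transcription factors of dendritic cells and monocytes, none was higher and 4 were lower, where 4.78% of all genes compared were lower: Irf8 (152 against 508 CPM, 3.35-fold, 3.04 to 3.69), Id2 (142 against 384 CPM, 2.70-fold, 2.44 to 2.99), Cebpb (215 against 488 CPM) and Tcf4 (70.3 against 167 CPM). Irf8 drives type 1 and Tcf4 plasmacytoid dendritic cells. The rule left cells with an Xcr1, Clec9a or Siglech UMI among the other LSM cells, so these 2 lower ratios can be set in part by it. Klf4 (191 against 116 CPM), Spi1 (577 against 429 CPM) and Rbpj (129 against 78.8 CPM) were higher by less than 2-fold. An Irf8 UMI was still counted in 27.5% of the Cd209a-high cells, against 4.71% of T cells.

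Chemokines and cytokines were mostly lower. Of 22 genes 18 were compared, 2 were higher and 11 lower, Cxcl9 among the lower ones by the rule. Of all genes compared, 1.23% were higher and 4.78% lower. The 2 higher genes, Ccl9 (130 against 45.0 CPM) and Ccl2 (70.6 against 19.5 CPM, 3.62-fold, 3.0 to 4.37), encode attractants of monocytes and other myeloid cells. Ccl5 (29.98 against 1151 CPM), Ccl17 (14.8 against 165 CPM), Ccl22 (2.41 against 62.3 CPM) and Il12a (2.07 against 77.0 CPM) were lower, and Il12b had no UMI. Of 11 genes of mature dendritic cells, 10 were compared and 8 were lower, with Fscn1 at 1.03 against 83.4 CPM, and Ccr7 at 0 by the rule. The rule left every cell with a UMI of an excluded gene, Ccr7 and Cxcl9 included, among the other LSM cells. Lower ratios of genes that are high in such cells can thus be set in part by the rule, to a degree that was not tested. Among co-stimulatory genes Cd86 (13.8 against 44.6 CPM) and Cd83 (28.6 against 70.9 CPM) were lower, while Tnfsf9, the ligand of 4-1BB, was higher (91.0 against 19.7 CPM, 4.61-fold, 3.87 to 5.49).

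On a list of chemokine receptors and tissue egress genes, 11 were compared, 3 were higher and 3 lower, against 1.23% and 4.78% of all genes. The 3 higher genes were chemokine receptors: Ccr1 at 27.6 against 6.85 CPM (4.02-fold, 2.94 to 5.49), Cx3cr1 at 115 against 50.3 CPM and Ccr2 as above. The lower ones were Ccr7 (by the rule), Ccr9, and Cd69, which is not a chemokine receptor. Il13ra1, a chain of the interleukin 13 receptor, was the only higher gene of 18 cytokine and growth factor receptors (41.7 against 16.3 CPM). The inhibitory Fc receptor Fcgr2b stood at 88.6 against 34.0 CPM, and the activating Fcgr3 and Fcgr4 at 9.65 and 3.79 CPM against 24.5 and 28.2 CPM. S100a4, S100a6 (3160 against 1471 CPM) and Lgals3 (1458 against 697 CPM) were the 3 higher genes of 11 S100, galectin and annexin genes, and none of these was lower.

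Interferon and stress genes were not raised as groups. Of 14 interferon-stimulated genes compared, Ifitm2 and Ifitm3 were higher and Gbp2 and Ifitm1 lower, with a median log2 ratio of -0.35. Of 13 immediate early genes only Atf3 passed 2-fold, with Fos at 1378 against 1326 CPM and Jun at 1237 against 1595 CPM. None of 8 heat shock genes passed.

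Set beside the 58 type 1 dendritic cells, 331 of 5846 genes were higher in the Cd209a-high cells (5.66%) and 254 lower (4.34%), with a median log2 ratio of -0.05. Of the 24 leading genes other than Cd209a, 22 were higher. These genes had been picked for high ratios in the same Cd209a-high cells, against cells that include the type 1 cells. The count is therefore a description and no separate support. S100a4 stood at 2521 against 157 CPM (16.0-fold, 12.8 to 20.4), Clec10a at 316 against 17.0 CPM (18.6-fold, 9.40 to 43.2) and Tmem176a, an ion channel gene, at 421 against 21.2 CPM (19.8-fold, 10.7 to 41.4). Cx3cr1, the fractalkine receptor, had 335 UMIs in the Cd209a-high cells and 1 in the type 1 cells (ratio 54.3, 9.68 to 2152), and Fcor had 430 and 2 (ratio 34.9, 9.59 to 289). Of the type 2 list 10 of 11 genes were higher, Cd209a by the rules of both classes, and of the other 10 genes 9 were higher, among them Sirpa (61.7 against 4.25 CPM), Cd7 (319 against 27.6 CPM) and Mgl2 (104 against 12.7 CPM).

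Besides Xcr1 and Clec9a, which chose the type 1 cells, the genes with the lowest ratios to them were Rab7b, Cxx1b, Ppt1, Cxx1a, Ifi205 and Tubb2a, between 7.61- and 16.8-fold lower. Ppt1, a lysosomal thioesterase, stood at 51.3 against 533 CPM (10.4-fold, 8.45 to 12.8), Rab7b at 6.20 against 104 CPM and Cst3 at 7029 against 25264 CPM (3.59-fold, 3.51 to 3.68). Irf8 (152 against 1009 CPM) and Id2 (142 against 905 CPM) were 6.64- and 6.36-fold lower, whereas Zeb2 was 23.5-fold higher (6.45 to 195). Cd86 stood at 13.8 against 106 CPM and Cd24a at 79.9 against 325 CPM. Of 15 cytokines and chemokines compared 8 were higher and 2 lower, so the low position of this group against the whole library did not hold against type 1 cells: Ccl3 stood at 118 against 12.7 CPM and Ccl6 at 266 against 53.1 CPM.

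**Figure D3:**
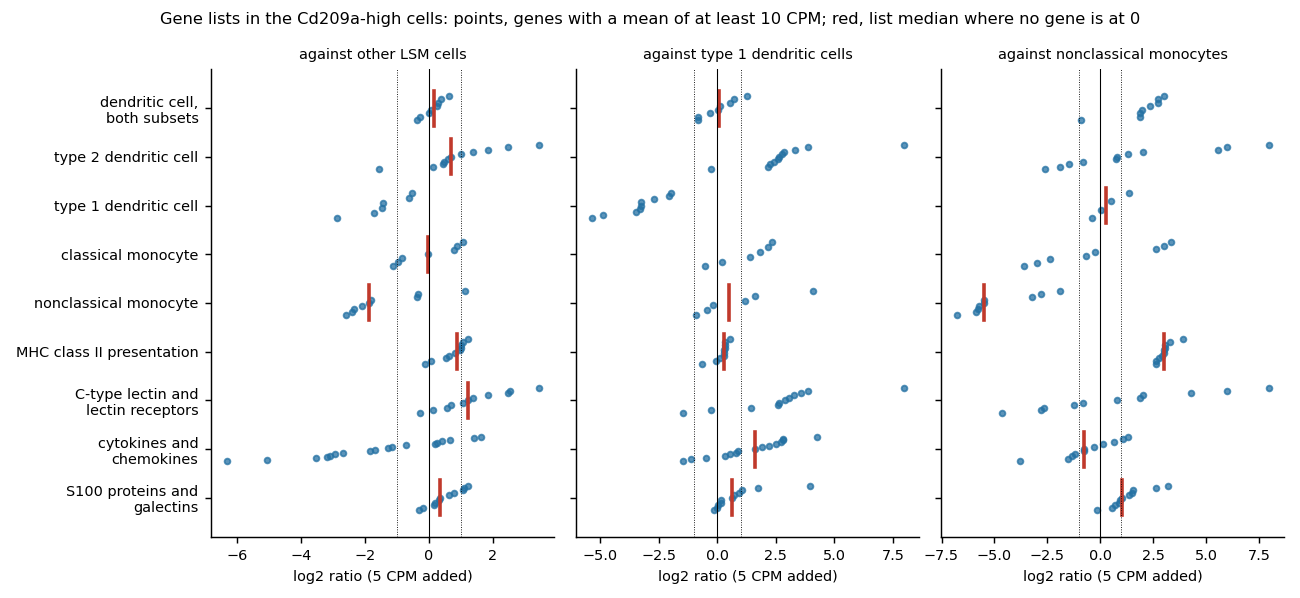
Log2 ratios of the Cd209a-high cells (horizontal axes, 5 CPM added) over the other LSM cells, type 1 dendritic cells and nonclassical monocytes for 9 gene lists, 1 point per gene with a mean of at least 10 CPM, with the list median in red where no gene of the list was at 0 UMIs and dotted lines at a 2-fold difference. MHC class II points lie near 0 against type 1 cells and near 3 against monocytes, and the type 2 points lie to the right against type 1 cells.

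Beside the 202 nonclassical monocytes, 374 of 6304 genes were higher (5.93%) and 1094 lower (17.4%), with a median log2 ratio of -0.26. With TMM or DESeq2 scaling that median was 0.03, and the higher genes went from 25.5% of those called to 48.9% and 48.7%. Of the 24 leading genes 13 were higher and none lower, again with genes picked for high ratios in the same cells against a set that includes these monocytes. Clec10a had no UMI in the monocytes, which puts it at least 55.4-fold higher against the floor of 3 counts in that class. Klrd1 was 88.0-fold higher (34.3 to 323), at 670 against 7.62 CPM, and Cd7, a lymphoid and dendritic surface protein, had 927 UMIs against 1 (ratio 168, 30.03 to 6633). H2-DMb1 stood at 1285 against 81.9 CPM.

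Apoe stood at 52.4 against 3909 CPM (74.6-fold lower, 63.3 to 88.6), Fabp4 at 6.55 against 636 CPM and Pglyrp1 at 14.5 against 1118 CPM. Of 11 lipid handling genes compared 9 were lower, and of 13 Fc and paired receptors 7 were lower, with none higher in either list. Of all genes compared with the monocytes, 5.93% were higher and 17.4% lower. Of 11 integrin and adhesion genes 7 were lower and 2 higher, with Itgal at 35.5 against 876 CPM. The factor Cebpb, needed for nonclassical monocytes, stood at 215 against 4916 CPM, and Csf1r at 57.5 against 484 CPM. Some leading genes did not separate the classes, with Ifitm3 at 5252 against 6455 CPM. The type 2 genes did not all go 1 way: Sirpa (61.7 against 248 CPM) and Itgam (64.4 against 189 CPM) were lower than in the monocytes. Clec10a, Cd7 and Irf4 (21.7 against 5.71 CPM) were higher. Cd209a-high cells thus differed from these monocytes in class II genes and in a part of the lectin and dendritic genes. Part of the set that set them apart from the whole library was shared with the monocytes.

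The genes varied unevenly among the 484 cells. For 1130 genes with a mean of at least 0.5 UMIs, the variance over cells was divided by the variance that counting alone gives at each cell's depth. The median ratio was 1.13, and 1.04 after thinning. Actb had the largest ratio (41.1), followed by Cd74 (36.03), Lyz2 (33.5), Cst3 (32.3), Hist1h2ap (23.2), Tmsb10 (23.04), H2-Eb1 (22.1), Tmsb4x (22.1), Hmgb2 (18.1) and H2-Ab1 (15.4). After thinning 8 of these 10 were still among the 10 highest, without Hist1h2ap and Hmgb2. Lysozyme (Lyz2) ran from 0 to 286 UMIs with a median of 5, and the 24 cells with most of it held 32.2% of its UMIs. H2-Ab1 ran from 0 to 130 UMIs with a median of 44. Mgl2, the paralog of Clec10a, was counted in 13.2% of cells, and 24 cells held 79.5% of its UMIs.

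Class II levels fell along a range with a small low end. The summed UMIs of H2-Aa, H2-Ab1 and H2-Eb1 ran from 0 to 371 with a median of 124, and 50 cells (10.3%) had fewer than 20, a bound set after the values were seen. Near that bound, 24 cells had 10 to 29 UMIs, and 14 cells had 0. The 50 low cells carried other genes. Ly6c2 had a UMI in 60.0% of them against 11.8% of the other 434, and Clec10a in 16.0% against 55.5%. Bst2 stood at 2128 against 504 CPM, Tcf4 at 222 against 52.1 CPM, Runx2 at 119 against 15.0 CPM and Cd209d at 283 against 109 CPM. Fcor (138 against 149 CPM) and Ccr2 (409 against 367 CPM) were alike in both. Bst2, Tcf4 and Runx2 are on the list of plasmacytoid dendritic cell genes, whose member Siglech is at 0 in all 484 cells by the rule. The part of such cells in the Cd209a-high levels was not tested.

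Irf8 marked another part of the range. At least 2 Irf8 UMIs were found in 70 cells (14.5%), also a bound set after the values were seen. In these Cst3 stood at 14539 CPM against 5525 CPM in the 351 cells with no Irf8 UMI, Id2 at 437 against 81.5 CPM, Ppt1 at 151 against 31.7 CPM and Naaa at 183 against 98.6 CPM. Clec10a was found in 20% of them against 57.5%. Cst3, Id2, Ppt1 and Naaa are among the genes whose level was higher in type 1 dendritic cells than in the Cd209a-high cells. Xcr1 and Clec9a were at 0 by the rule in all Cd209a-high cells, with or without Irf8 UMIs. Of the 70 cells 20 were also among the class II-low cells and 15 had at least 2 Ly6c2 UMIs.

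Mgl2 stood at the other end. The 40 cells (8.26%) with at least 2 Mgl2 UMIs had a Clec10a UMI in 80.0%, H2-Ab1 at 11536 CPM against 6699 CPM in cells without Mgl2, and Itgax at 147 against 50.4 CPM. None of the 40 was class II-low and none had 2 or more Ly6c2 UMIs. Cells with a Clec10a UMI (249) had H2-Ab1 at 8948 CPM against 5613 CPM in the 235 without, and Irf8 at 57.3 against 251 CPM. These values describe cells of 1 library, and the subsets were defined from the same counts that are compared.

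**Figure D4:**
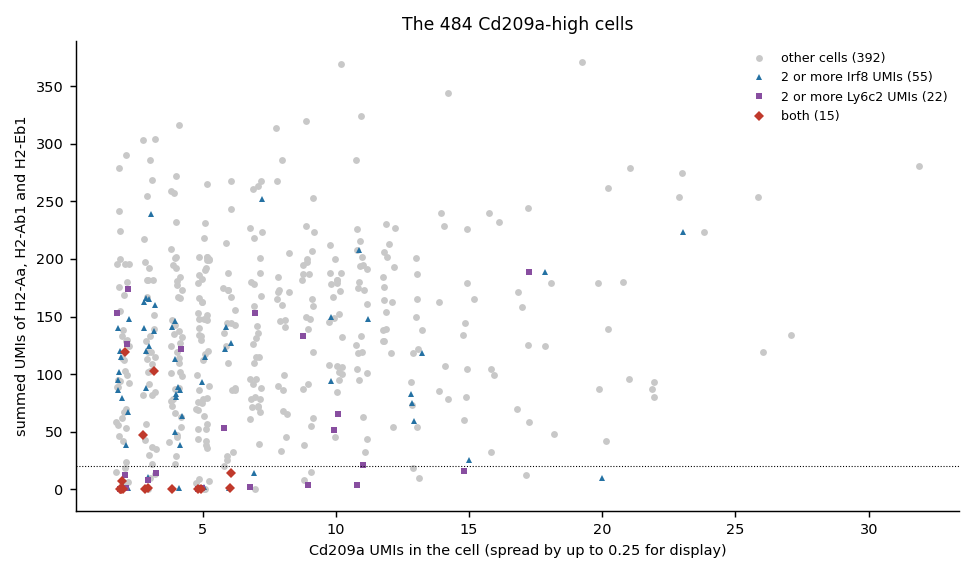
Each of the 484 Cd209a-high cells by its Cd209a UMIs (horizontal axis, spread by up to 0.25) and its summed UMIs of H2-Aa, H2-Ab1 and H2-Eb1 (vertical axis), with cells of 2 or more Irf8 UMIs (55), 2 or more Ly6c2 UMIs (22) or both (15) marked and a dotted line at 20 UMIs. The 50 cells under the line are mostly at low Cd209a counts, and 12 of the 15 cells with both genes are among them.

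The amount of Cd209a went along with these differences. Cells were grouped by 2 (64 cells), 3 to 5 (166), 6 to 9 (112) and 10 or more (142) Cd209a UMIs, with median depths of 6007, 5700, 5592 and 5980 UMIs, and each cell was thinned to 1500 UMIs. The share with a Clec10a UMI went from 12.5% through 24.7% and 28.6% to 41.5%, and that with an H2-Ab1 UMI from 79.7% through 89.8% and 93.8% to 98.6%. Irf8 went the other way, from 25% through 15.1% and 10.7% to 4.23%, and Ly6c2 was seen in 21.9% of the first group and 4.23% of the last. Ccr2, between 37.3% and 42.9%, and Fcor, between 15.2% and 25.4%, had no such order. The groups are cut on the count that chose the cells and hold cells of 1 library, so these shares are a description.

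**Figure D5:**
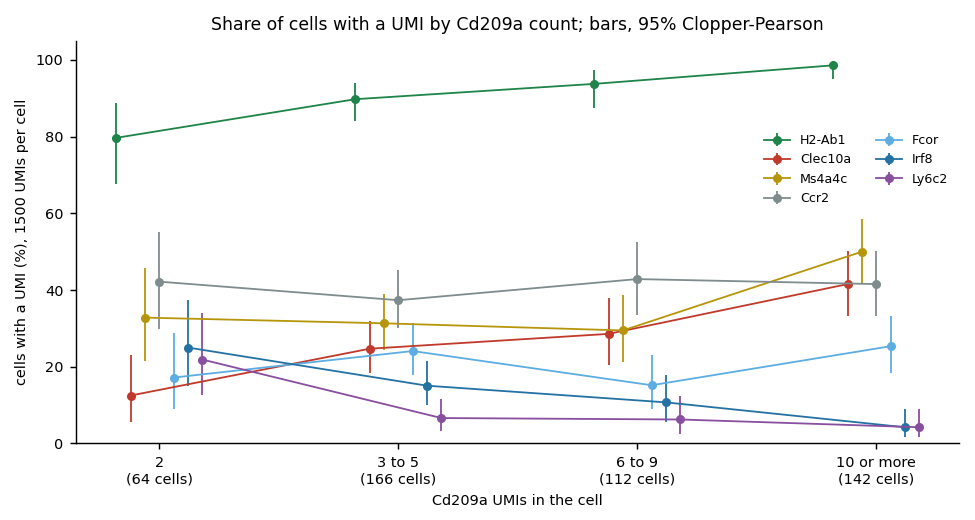
Share of Cd209a-high cells with a UMI of 7 genes (vertical axis, percent, after thinning each cell to 1500 UMIs) by the Cd209a UMIs counted in the cell before thinning (horizontal axis, 4 groups), with 95% Clopper-Pearson bars. Clec10a goes from 12.5% to 41.5% and H2-Ab1 from 79.7% to 98.6%, Irf8 goes from 25% to 4.23%, and Ccr2 and Fcor show no order.

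The same rule picked 72 of the 1248 kept cells (5.77%) in the CD122+CD49a+ library, which took no part in choosing the leading genes. They were shallower, with a median of 2435.5 UMIs, and a count of 3 in them equals 16.0 CPM. Of the 24 leading genes other than Cd209a, 21 were at least 2-fold higher in these cells than in the 1176 other cells of that library, where 6.01% of the 7292 genes compared were higher. Clec10a, Clec4b1 and Fcor were 8.27-, 8.56- and 14.0-fold higher there and Ifitm3 5.76-fold. The 3 genes under 2-fold were Ms4a6b (0.961-fold), Klrd1 (1.08-fold) and Atf3 (1.34-fold). The other cells of the 2 libraries are not alike, since 580 cells of the CD122+CD49a+ library, and 85 of the LSM library, met the T cell rule.

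Against type 1 dendritic cells of their own library (69 cells), 20 of the 24 genes were higher (18.5% of 6667 genes were), and against its 25 nonclassical monocytes 9 were higher and 2 lower (17.9% and 35.9% of 6856 genes were). In the class II list 9 of 10 genes were higher than in the other cells of that library, where 4 had been in the LSM library. Of the neighbours of Cd209a, the log2 ratios in that library were 3.37 for Fcor, 2.22 for Mcemp1, 1.84 for Trappc5, 2.29 for Cd209d, and -0.16 for A430078G23Rik. The first 4 genes were thus higher in Cd209a-high cells of both gates.

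Directly between the gates, 553 of 6312 genes were higher in the LSM Cd209a-high cells (8.76%) and 1234 lower (19.6%), but that balance turned with the scaling. The higher genes were 30.9% of those called with total UMIs, 65.1% with TMM and 62.6% with DESeq2 size factors, and the median log2 ratio went from -0.18 to 0.19 and 0.16. Of the 24 leading genes 2 were higher, Atf3 (671 against 133 CPM, 5.03-fold, 3.40 to 7.79) and Cd209d (128 against 53.3 CPM), and 1 was lower, Ccl9 (130 against 293 CPM). Clec4b1 (181 and 187 CPM), Fcor (148 and 181 CPM), Mcemp1 (166 and 144 CPM) and Ifitm3 (5252 and 5110 CPM) were within 1.5-fold of each other.

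Stress-response genes stood apart between the gates. Of 13 immediate early genes 9 were higher in the LSM cells and none lower, with Jun at 1237 against 293 CPM (4.22-fold, 3.23 to 5.61) and a median log2 ratio of 1.14. Of all genes compared between the gates, 8.76% were higher in the LSM cells and 19.6% lower. Cdkn2d, a cell cycle inhibitor, was 8.27-fold higher (3.21 to 30.5) and Ccl4 5.98-fold (3.13 to 13.1). Genes higher in the CD122+CD49a+ cells included Fcgr3 (9.65 against 128 CPM), Mpeg1, the pore-forming perforin-2 (96.1 against 480 CPM, 4.99-fold, 3.89 to 6.35), and Tgfbi (40.3 against 203 CPM). Lars2, a mitochondrial leucyl-tRNA synthetase gene, stood at 13.4 against 208 CPM. The median share of mitochondrial UMIs was 1.15% in the LSM and 2.16% in the CD122+CD49a+ cells, and the part of depth and cell handling in these values was not tested.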

How the data were processed

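Both libraries were analysed from the deposited 10x matrices of whole-number UMI counts for 27998 genes, written by the authors' matrix software 3.0.1, per the file headers. Per the submitters' processing notes the GRCm38 build, STAR and Seurat 2.3.0 were used. Barcode calling and the counting of paralog reads are not given in the sources used here. Gene identifiers were matched to GENCODE M21 (27722, 99.0%).

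Kept barcodes had 500 or more detected genes and no more than 10% mitochondrial UMIs, and were put in classes by the UMI rules above. Counts were summed per class and scaled to CPM. With 1 library per gate no test across samples is possible and cells are not replicates, so no p-value was computed. A gene counted as 2-fold different after 5 CPM was added, and a count of 0 was set to 3 counts for a bound on a ratio. Intervals (95%) were exact Poisson, conditional binomial or Clopper-Pearson, and the ratio code was tested on simulated data.

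The members and the 38 lists (386 genes, of which Cd300c2, Clec6a and Clec7a were not analysed here) were chosen with earlier results of these data known. Named genes were the 25 protein-coding genes with the largest and the 12 with the lowest ratio to the other LSM cells (at least 100 CPM and a UMI in 25% of cells of the higher class), the 10 with the highest level, 8 per direction in the other comparisons, the 10 with most excess variance, and list members, some of which are not reported here. Subsets by Irf8, Ly6c2, Mgl2, Clec10a or class II UMIs, the window around Cd209a, the promoter letters and the genes shown by Cd209a count were chosen after values were seen. Mitochondrial, ribosomal, predicted and receptor segment genes were left out of rankings. Doublets were not removed: Scrublet in scanpy 1.11.5 marked 0.351% and 0.181% of cells by its own threshold, under the 0.5% at which it is taken to have worked, and an alternative removed the 79 and 22 cells with the highest scores, 7 and 0 of them Cd209a-high. Other alternatives were TMM (edgeR 4.0.16) and DESeq2 1.42.0 size factors, used for scaling only, a mean of per-cell CPM, other pseudocounts, minimums and cell filters, and thinning. Python 3.11.15, numpy 2.4.6, scipy 1.17.1, pandas 2.3.3, matplotlib 3.10.9 and R 4.3.3 were used.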

Additional observations from a re-analysis of the deposited data

How the results depend on the processing

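The count of Cd209a-high cells was set by the rule: 558 with at least 1 Cd209a UMI, 420 with at least 3, 713 without the 7 excluded genes, and 297 when cells were thinned to 1500 UMIs before the rule was applied. Against the other LSM cells, the 77 higher genes became 138 with TMM and 146 with DESeq2 size factors, and the 300 lower genes 533 with no minimum CPM and 507 after thinning. MHC class II genes at least 2-fold higher went from 4 to 2 with at least 1 Cd209a UMI and to 2 with a stricter cell filter (1000 genes or more, no more than 5% mitochondrial UMIs). Against type 1 dendritic cells, the 331 higher genes became 636 with no minimum CPM and 656 after thinning, and the 254 lower genes 413 with 1 CPM added and 867 after thinning, with the higher share of called genes at 43.1% in place of 56.6%. Against nonclassical monocytes, the 374 higher genes became 659 with TMM, 655 with DESeq2 size factors and 652 with no minimum CPM, and the 1094 lower genes 690 with TMM and 691 with DESeq2 size factors. Between the gates, the 553 higher genes became 1119 with TMM, 1072 with DESeq2 size factors and 1028 with no minimum CPM, and the 1234 lower genes 599 and 640 with the 2 scalings. More genes were compared with no minimum CPM, and thinned counts were smaller; the cause was not tested for the other changes.

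Of 101 values of such counts under an alternative, the 24 above moved, by more than 1.5 times for counts of genes or beyond its interval for the number of cells, and the other 77 did not. The named genes kept their direction under every alternative run, in 407 of 407 values against the other LSM cells and 160 of 160 in each of the other 3 comparisons, and kept the 2-fold difference in 404 of 407 and in all 160. No paired analysis was possible because each gate was 1 library and no result came from a test. Depth limits what could be seen in the smaller classes: 3 counts equal 6.37 CPM in the type 1 dendritic cells, 5.71 CPM in the nonclassical monocytes and 16.0 CPM in the Cd209a-high cells of the CD122+CD49a+ library, so ratios of low genes there are bounds or have wide intervals.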
